A study of Caenorhabditis elegans with 12 samples.

Results

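The chemoreceptor families of Caenorhabditis elegans are large families of predicted 7-transmembrane proteins, most of them named with symbols that begin with sr or str. They act in ciliated sensory neurons of the head and tail, where many different receptors can be made in the same cell and where G proteins, cyclic GMP and cation channels carry the signal onward. For a few receptors a ligand is known, among them odr-10, which encodes the receptor for the odorant diacetyl in the AWA neurons. The transcription of chemoreceptor genes is known to respond to feeding state, pheromone and stage. The genes described here were found by symbol (23 families, with odr-10 counted in str) and had to reach a mean of at least 1 CPM (counts scaled to the library total) in at least 1 of 3 strains. Of 46934 genes in the count table, 1346 carried such a symbol and 270 of these reached the level. These 270 genes are called the members. Because the strains' mean levels chose the members, their levels, and counts of differences over them, are a description and not evidence for a change of the families as a whole.

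RNA was measured by sequencing in whole larvae of the first larval stage (L1) that had hatched in M9 buffer from eggs freed with hypochlorite and had stayed there, arrested without food, for 48 h. N2 is the wild type. HBR2340 carries the allele syb1445 and PHX2193 the allele syb2193 of flp-11, which encodes neuropeptides made by the interneuron RIS. Neither the change made by each allele nor any outcrossing is stated in the labels. Each strain had 4 biological replicates per the series' design text, lettered A to D. No age beyond the arrest is given, the sex is not given, and no other treatment or allele is named.

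The N2 libraries held 23068345 to 34832403 counts, those of HBR2340 25642142 to 28865328 and those of PHX2193 23941071 to 30526360. The RNA of flp-11 lay at 206 to 367 CPM in the N2 libraries, 108 to 142.2 in HBR2340 and 19.3 to 23.2 in PHX2193, so the 3 strains did not overlap. The library N2 B stood apart from the other N2 libraries. In it, 107 of the 270 members were more than 2-fold lower and 29 more than 2-fold higher than the mean of N2 A, C and D (50.4% of members, with a median log2 ratio of −0.70), against 26.955% of all 15908 genes tested (median −0.12). Measured the same way, 11.5%, 15.9% and 15.6% of members lay more than 2-fold away in N2 A, C and D. The median coefficient of variation of a member was 40.1% in N2, 23.5% in HBR2340 and 21.3% in PHX2193, so comparisons with N2 had the largest spread. Results are therefore given with and without N2 B. In whole larvae, fewer cells of a type and less RNA per cell cannot be told apart.

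Members came from all 23 families. The family srh gave the most (40 of its 220 genes), followed by str (20 of 194), srx (19 members), sri (18 of 61) and srlf (17 of 36). The small families srm (4 of 6) and srr (4 of 9) had 4 members each, and srj (3 of 39) and srxa (1 of 17) had few for their size. Of the 1076 family genes below the level, 40 had no count in any library. Just outside the threshold lay srh-28, srb-5 and srbc-51, whose highest strain means were 0.999, 0.985 and 0.982 CPM. Just inside lay srh-186, srh-78 and srv-6 at 1.0001, 1.01 and 1.01 CPM.

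**Figure D1:**
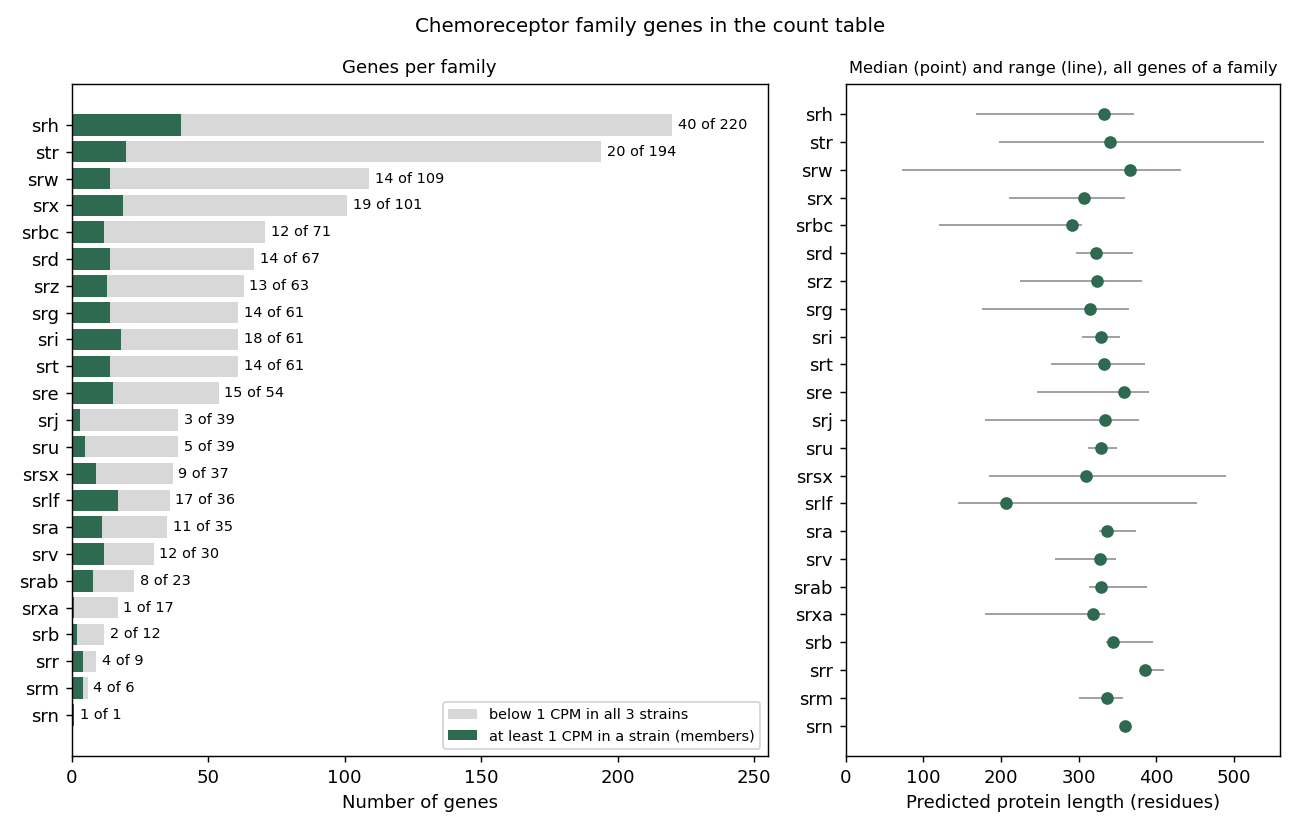
The left panel shows the number of genes per family, with the members in green and the family genes below 1 CPM in all 3 strains in grey. The right panel shows the predicted protein length in residues of all genes of a family, as median (point) and range (line); the srlf median is 206.5 residues, while the median of all other family genes together is 332.

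The label of a receptor family was checked against gene structure, because no cell type marker applies to a gene family. The 36 srlf genes had a median predicted length of 206.5 residues and 2 coding exons, and the 17 srlf members a median of 169 residues. The other 1310 family genes had a median of 332 residues and 5 coding exons, with the central 80% between 297 and 360 residues. The tables used here give no function for srlf genes, and their length differs from that of the 7-transmembrane families. The srlf genes are therefore described apart, and counts are also given for the 253 members without them.

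All 270 members are annotated as protein coding. Chromosome V held 899 family genes (66.8%) and 147 members (54.4%). On chromosome V 16.4% of the family genes were members, against 21.2% to 32.4% on each of the other chromosomes. The median distance from a member to the nearest other family gene was 2.16 kb, against 1.10 kb for family genes below the level, and 73.3% against 84.0% had another family gene within 10 kb. The exons of 81 members overlap an exon of another gene. Strandedness of the counts, and the handling of reads that match several near-identical family genes, are among the steps not given in the sources used here, so values of close paralogs and of overlapping genes are uncertain to that extent.

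Most members had low levels, although 147 of the 270 reached 2 CPM in at least 1 strain by the measure of the rule. The median member had a level of 1.70 CPM over the 12 libraries (levels here and below are CPM after TMM scaling of library size), with an interquartile range of 1.06 to 3.58 CPM. The mean over the 12 libraries lay under 2 CPM for 155 members and was at least 10 CPM for 26. The 10 highest members held 54.3% of the summed level and the highest alone 19.4%. Without srlf, the 10 highest of 253 members held 40.2%. A member had between 157 and 105188 counts over all 12 libraries, with a median of 565. By the measure of the rule, which has no TMM scaling, the level was reached by 236 members for PHX2193, 206 for N2 and 189 for HBR2340. By the same unscaled measure, all 3 strains passed the level for 155 members, 2 strains for 51 and 1 strain for 64. Of these 64, 11 passed only in N2, 20 only in HBR2340 and 33 only in PHX2193.

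The summed level of all members overlapped between the 3 strains. In the order A to D, it came to 1657, 1499, 1746 and 1640 CPM for N2 and 1587, 1638, 1687 and 1688 CPM for HBR2340, against 1641, 1707, 1660 and 1684 CPM in PHX2193. The means were 1636 ± 102, 1650.0 ± 48.0 and 1673 ± 28.7 CPM (SD, n = 4 each), and the ranges of the 3 strains overlap. Without srlf they were 973 ± 108, 963 ± 76.5 and 1046 ± 24.6 CPM. Here the PHX2193 libraries lay at 1020 to 1079 CPM, inside the N2 range of 839 to 1103. For the 17 srlf members the sum was 643 to 677 CPM in N2, 625 to 721 CPM in HBR2340 and 620 to 641 CPM in PHX2193, so every PHX2193 library lay below every N2 library.

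Per kilobase of exon, the scale on which levels of different genes can be compared, the 10 highest members were srlf-32, srlf-7, srlf-1, srr-4, srlf-31, srlf-30, odr-10, srw-85, srw-86 and srlf-33. The highest, srlf-32 (WBGene00014091; WBcel235 chromosome IV, 11926025 to 11928427, plus strand), had a mean of 216 CPM per kb and a predicted protein of 452 residues, the longest among srlf genes. The member srr-4 (chromosome V, 5019224 to 5022363, plus strand) had 98.5 CPM per kb and odr-10 56.6, while srw-85 and srw-86 had 34.8 and 30.6. The prediction for srw-86 is 90 residues long, far shorter than is usual for these receptors. Neighbours in this order lay close together: srlf-7 (118) and srlf-1 (117) differed by less than the spread between libraries, as did srlf-31 (68.8) and srlf-30 (67.2).

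Among these 10, srlf-32, srlf-7, srr-4, srlf-31, srlf-30 and srlf-33 were called in no comparison. The level of srlf-32 was 326, 415, 323 and 312 CPM in N2 and 341, 349, 275 and 301 CPM in HBR2340, against 322, 298, 313 and 283 CPM in PHX2193. That of srr-4 was 130.4, 94.7, 159 and 129.6 CPM in N2 and 140.4, 155, 174 and 175 CPM in HBR2340, against 146, 157, 111 and 130.2 CPM in PHX2193. In all 3 comparisons the libraries of the strains overlapped for both genes. The gene srlf-7 had 44.2 CPM in N2 B and 77.6 to 130.02 CPM in the other 11 libraries. Likewise srlf-30 varied within strains, from 4.94 CPM in N2 B to 36.6 to 61.0 CPM in the other N2 libraries, and reached 102 CPM in HBR2340 D.

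**Figure D2:**
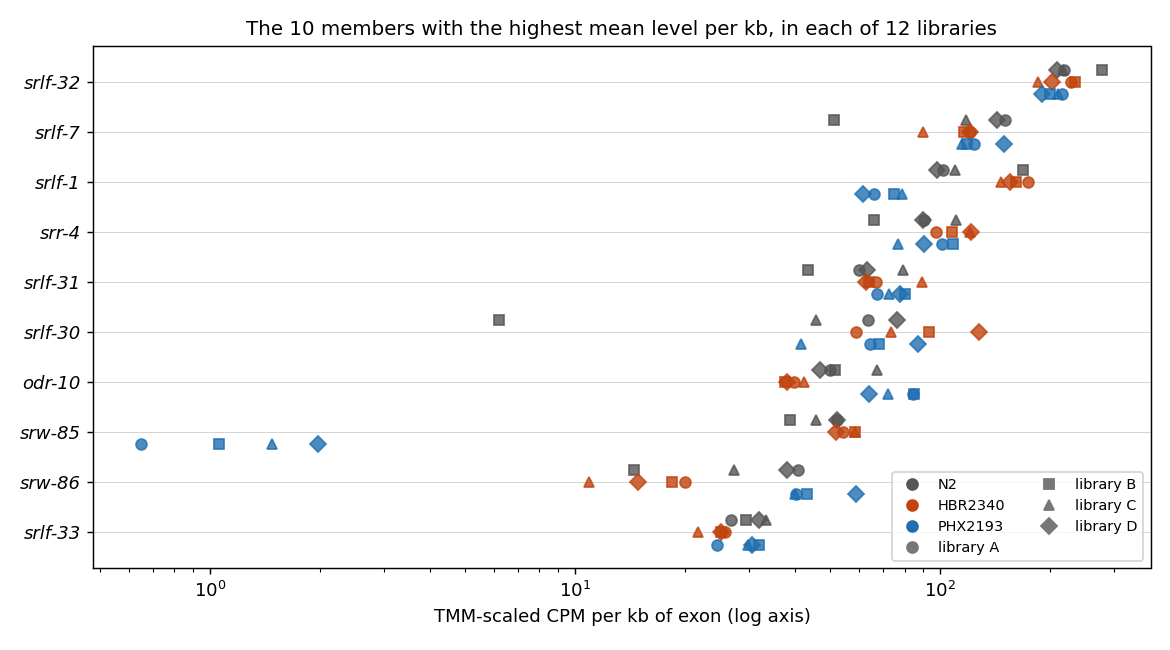
Level of the 10 highest members in each of the 12 libraries, as TMM-scaled CPM per kb of exon on a log axis; colour marks the strain and shape the replicate letter. The 4 PHX2193 libraries of srw-85 lie far left of the other strains, and N2 B is the lowest library of srlf-30 and srlf-7.

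The member with the largest fall was srw-85 (WBGene00005832; chromosome V, 19429387 to 19431136, minus strand; 314 residues), of the srw family, whose proteins resemble peptide receptors more than the other families do. It had 74.5, 55.2, 65.1 and 74.4 CPM in N2 and 77.2, 83.5, 83.2 and 74.0 CPM in HBR2340, against 0.926, 1.505, 2.10 and 2.82 CPM in PHX2193. Every PHX2193 library was far below every library of the other strains. The log2 fold change was −5.17 ± 0.26 against N2 (± SE; edgeR adjusted p = 1e-06 from its quasi-likelihood test with Benjamini-Hochberg adjustment) and −5.41 ± 0.26 against HBR2340 (edgeR adjusted p = 6.5e-07). In HBR2340 against N2 the value was 0.24 ± 0.21 and was not called (edgeR adjusted p = 0.582). Both calls held in each of the 12 fits with 1 library left out.

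Genes around srw-85, looked at after its values were seen, did not share this fall. In the window of 15 kb to each side, C25F9.11, 1311 bp away on the same strand, had means of 50.8 ± 24.02 CPM (N2), 23.4 ± 7.34 CPM (HBR2340) and 68.5 ± 18.02 CPM (PHX2193), and was higher in PHX2193 than in HBR2340 (log2 1.55 ± 0.36, edgeR adjusted p = 0.010). M04C3.1, 6763 bp away, had 40.9 ± 4.34, 46.7 ± 6.86 and 40.5 ± 5.76 CPM. The member srw-86 (19400077 to 19400719, minus strand) had 24.4, 8.68, 16.3 and 22.8 CPM in N2 and 12.0, 11.04, 6.51 and 8.89 CPM in HBR2340, against 24.02, 25.8, 23.98 and 35.1 CPM in PHX2193. It was higher in PHX2193 than in HBR2340 (1.503 ± 0.29, edgeR adjusted p = 0.0029), the direction opposite to srw-85, and every PHX2193 library was above every HBR2340 library.

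The diacetyl receptor gene odr-10 (WBGene00003856; chromosome X, 6864315 to 6865939, minus strand) was lowest in HBR2340 and highest in PHX2193. Its levels were 55.6, 57.3, 74.7 and 52.2 CPM in N2 and 44.3, 41.9, 47.02 and 42.3 CPM in HBR2340, against 93.6, 94.3, 80.2 and 71.1 CPM in PHX2193. HBR2340 lay below all N2 and PHX2193 libraries, while PHX2193 D (71.1) was below N2 C (74.7). PHX2193 was higher than HBR2340 by 0.95 ± 0.13 on the log2 scale (edgeR adjusted p = 0.00030). Against N2 neither strain passed: the log2 fold change was −0.45 ± 0.13 in HBR2340 (edgeR adjusted p = 0.053) and 0.50 ± 0.13 in PHX2193 (edgeR adjusted p = 0.13). Without N2 B the HBR2340 value was −0.49 and passed (edgeR adjusted p = 0.019).

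**Figure D3:**
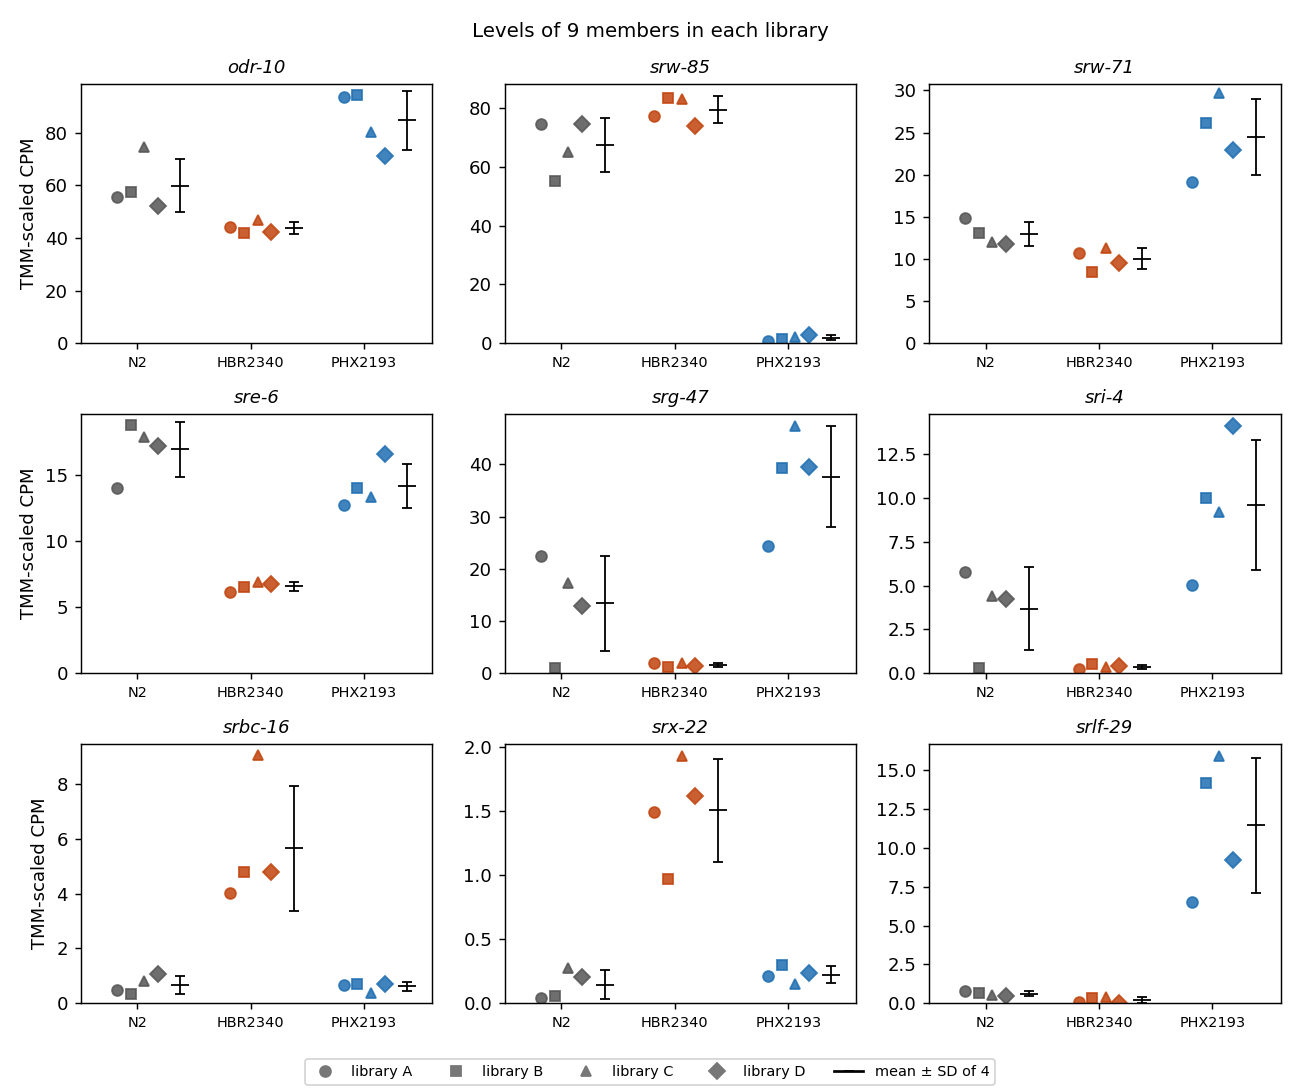
Level of 9 members in each library, as TMM-scaled CPM on linear axes that start at 0; points are libraries (shape gives the replicate letter), and the black bar beside each strain is the mean ± SD of its 4 libraries. N2 B is at the HBR2340 level for srg-47 (1.08 CPM) and sri-4 (0.284 CPM), while the other N2 libraries are between the 2 mutant strains for srg-47; for sri-4, N2 A (5.78 CPM) is above PHX2193 A (5.05 CPM).

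The first comparison asks how HBR2340 differed from the wild type. Of the 270 members, 10 were called higher and 22 lower at an adjusted p under 0.05 over all genes tested (11.9% of members), while 7.37% of all 15908 genes tested were called (3.34% higher and 4.03% lower). The median log2 fold change was −0.13 for members and −0.04 for all genes, and without N2 B the members' median was −0.22. Without srlf, 9 of 253 were higher and 19 lower. Without N2 B, 17 members were higher and 51 lower, beside 17.7% of all genes called (7.93% higher and 9.8% lower). The count fell to 19, 21, 15 and 14 without HBR2340 A, B, C or D, to 18 without N2 A and to 20 without PHX2193 B. How many of all genes were called in these fits was not counted, so whether the fall is particular to the members was not tested. Members that passed the level in all 3 strains were called in 10 of 155 cases (5 higher and 5 lower, 6.45%). Those that passed in 1 or 2 strains were called in 22 of 115. Since this split uses the strains' mean levels, it tends to leave small differences in the first set and large ones in the second. Members with a mean of at least 1 CPM over all 12 libraries were called in 25 of 212 cases (7 higher and 18 lower, 11.8%). The libraries of both strains did not overlap for 51 of the 270 members (18.9%) and for 13.8% of all genes tested.

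Members that rose in HBR2340 included srbc-16, srx-22, srlf-12, srh-146, sri-19, srt-62, srj-27, srab-14, srsx-24 and srm-6, which are all 10. The gene srbc-16 (chromosome V, 2182038 to 2183191, plus strand) had 0.478, 0.341, 0.795 and 1.06 CPM in N2 and 4.01, 4.80, 9.05 and 4.79 CPM in HBR2340, against 0.673, 0.692, 0.369 and 0.714 CPM in PHX2193. Every HBR2340 library was at least at 4.01 CPM and no other library was over 1.06. The rise over N2 was 3.04 ± 0.39 on the log2 scale (edgeR adjusted p = 0.00066). It lies between the cytochrome P450 genes cyp-33C1 (100 bp away) and cyp-33C2 (297 bp away) on the same strand, which were looked at afterwards. These rose by 2.74 ± 0.23 (edgeR adjusted p = 5.2e-05) and 2.87 ± 0.28 (edgeR adjusted p = 0.00014). Whether reads of these neighbours entered the srbc-16 counts was not tested.

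The other large rises were of genes near or below the threshold in N2. For srx-22 the levels were 0.0434, 0.0568, 0.274 and 0.206 CPM in N2 and 1.498, 0.975, 1.94 and 1.62 CPM in HBR2340, a log2 rise of 3.21 ± 0.46 (edgeR adjusted p = 0.0015). For srlf-12 they were 1.35, 1.14, 1.34 and 2.58 CPM in N2 and 4.77, 9.75, 23.7 and 15.02 CPM in HBR2340 (3.04 ± 0.44, edgeR adjusted p = 0.0015). In both genes the strains did not overlap. For srx-22, N2 A and N2 B held 1 count each, less than the 3 counts that a count of 0 allows (0.130 and 0.170 CPM). The size of its rise is uncertain to that extent. The rises of sri-19 (1.79 ± 0.34), srj-27 (1.66 ± 0.38), srh-146 (1.64 ± 0.31) and srt-62 (1.28 ± 0.29) were smaller, and those of srab-14, srsx-24 and srm-6 were under 2-fold (0.75, 0.77 and 0.76). The call of srt-62 was lost without HBR2340 C, HBR2340 D or N2 C (edgeR adjusted p of 0.0506 to 0.065), and that of srj-27 without HBR2340 C, HBR2340 D or N2 A (0.0575 to 0.0703). Those of srab-14 and srm-6 were lost without any 1 of the HBR2340 libraries, N2 A, PHX2193 B or PHX2193 C, and for srm-6 also without PHX2193 A or D (edgeR adjusted p of 0.0523 to 0.117 and 0.0575 to 0.140).

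Of the members that fell in HBR2340, sre-6 (chromosome V, 10760575 to 10762795, minus strand) had the smallest adjusted p. It had 14.03, 18.8, 17.9 and 17.2 CPM in N2 and 6.17, 6.55, 6.93 and 6.74 CPM in HBR2340, against 12.8, 14.1, 13.4 and 16.6 CPM in PHX2193. The HBR2340 libraries were tightly grouped at under 7 CPM, with all others at 12.8 CPM or more. The log2 change against N2 was −1.36 ± 0.13 (edgeR adjusted p = 9.9e-05). Its exons overlap those of F28H7.8 on the opposite strand by 89 bp, and that gene had 7.16 ± 2.77, 8.28 ± 0.702 and 7.96 ± 2.18 CPM in the 3 strains.

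The 3 largest falls in HBR2340 were of sri-4, srt-15 and srg-47. The gene srg-47 (chromosome V, 14554980 to 14556287, minus strand) had 22.4, 1.08, 17.3 and 12.9 CPM in N2 and 1.92, 1.29, 1.97 and 1.38 CPM in HBR2340, against 24.4, 39.3, 47.4 and 39.5 CPM in PHX2193. N2 B lay below all HBR2340 libraries, and the other N2 libraries lay between the mutant strains. The log2 change of HBR2340 against N2 was −3.03 ± 0.62 (edgeR adjusted p = 0.013) and −3.42 without N2 B (edgeR adjusted p = 1.9e-05). The gene sri-4 (chromosome V, 748344 to 750467, plus strand) had 5.78, 0.284, 4.41 and 4.22 CPM in N2 and 0.244, 0.507, 0.352 and 0.406 CPM in HBR2340, against 5.05, 9.99, 9.22 and 14.1 CPM in PHX2193. Again N2 B was among the HBR2340 libraries. Its change was −3.29 ± 0.66 (edgeR adjusted p = 0.010) and −3.68 without N2 B (edgeR adjusted p = 3.9e-05). Neither passed with limma-voom (adjusted p = 0.121 for sri-4 and 0.1202 for srg-47), and srg-47 did not pass with no filter on low counts (edgeR adjusted p = 0.0542).

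The fall of srt-15 was −3.26, and the other named falls lay between −2.61 (srlf-37) and −1.21 (srt-61). In HBR2340 the gene srt-15 had 0.139, 0, 0.176 and 0.0406 CPM, where no count in HBR2340 B allows a level of up to 0.117 CPM, and in N2 it had 0.869, 1.36, 0.960 and 0.515 CPM. For srlf-37 the values were 14.5, 2.55, 7.05 and 11.5 CPM in N2 against 1.95, 1.37, 1.48 and 1.01 CPM in HBR2340 (−2.61 ± 0.43, edgeR adjusted p = 0.0033). Neither gene's strains overlapped. Falls of srj-29 (−2.40 ± 0.46), srlf-36 (−1.83 ± 0.44), sre-22 (−1.57 ± 0.29), srbc-60 (−1.52 ± 0.31), srh-213 (−1.52 ± 0.27) and sra-27 (−1.24 ± 0.28) also passed. The call of srlf-36 was lost without HBR2340 B, HBR2340 C, HBR2340 D, N2 A or N2 D (edgeR adjusted p of 0.0541 to 0.0794), that of srt-61 without HBR2340 A, C or D (0.0543 to 0.0601), and that of sra-27 without HBR2340 C or D (0.0574 to 0.0592).

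The second comparison asks how PHX2193 differed from the wild type. Of 270 members, 5 were called, 3 higher and 2 lower (1.85%), while 0.365% of all genes tested were called (0.163% higher and 0.201% lower). The median log2 fold change was 0.17 for members and −0.01 for all genes, and without N2 B the members' median was 0.07. Without N2 B 5 members were higher and 3 lower, beside 1.4% of all genes called (0.739% and 0.665%). The count was 3 without HBR2340 A or C, and 2 without HBR2340 D, N2 C, N2 D, PHX2193 B, PHX2193 C or PHX2193 D. For these fits, too, the calls over all genes were not counted. The libraries of both strains did not overlap for 30 of the 270 members (11.1%) and for 6.03% of all genes tested. Calls of srw-85 and srlf-29 held in each fit with 1 library left out.

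The largest rise in PHX2193 was of srlf-29 (chromosome II, 1666325 to 1667526, plus strand; 148 residues). It had 0.782, 0.681, 0.521 and 0.446 CPM in N2 and 0.105, 0.312, 0.422 and 0 CPM in HBR2340, against 6.52, 14.2, 15.9 and 9.22 CPM in PHX2193. The single library with no count, HBR2340 D, allows a level of up to 0.122 CPM. The 3 strains did not overlap. The log2 rise was 4.25 ± 0.52 over N2 (edgeR adjusted p = 0.0051) and 5.73 ± 0.58 over HBR2340 (edgeR adjusted p = 3.7e-05). It shares 5 bp of exon with srw-97 on the opposite strand, a family gene at 0.198 ± 0.0851 CPM in PHX2193. The nearest tested gene, duxl-1 (559 bp away, same strand, looked at afterwards), had 80.3 ± 48.8, 61.3 ± 2.36 and 66.7 ± 16.6 CPM. Farther away in the window of 15 kb, irld-36 (2.19 ± 0.24), fbxb-26 (1.86 ± 0.33) and the pseudogene WBGene00019038 (1.299 ± 0.29) were also higher in PHX2193 than in HBR2340 (edgeR adjusted p of 6.2e-05, 0.0019 and 0.0074), while none of these 3 was called against N2 in PHX2193.

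A cluster of 3 srw genes on chromosome V (srw-68, srw-69 and srw-71; 7425259 to 7431116, minus strand) was high in PHX2193. The levels of srw-71 were 14.9, 13.1, 12.1 and 11.7 CPM in N2 and 10.7, 8.50, 11.3 and 9.58 CPM in HBR2340, against 19.1, 26.1, 29.7 and 22.9 CPM in PHX2193. Those of srw-68 were 1.95, 1.48, 2.06 and 1.58 CPM in N2 and 1.29, 0.741, 0.950 and 1.34 CPM in HBR2340, against 4.12, 4.69, 7.01 and 3.89 CPM in PHX2193. For both genes every PHX2193 library was above every other library. Against N2 the rises were 0.92 ± 0.15 (srw-71, edgeR adjusted p = 0.025) and 1.47 ± 0.26 (srw-68, edgeR adjusted p = 0.035), while srw-69 had 1.27 ± 0.32 and did not pass (edgeR adjusted p = 0.12). The call of srw-71 was lost without HBR2340 D, N2 C, N2 D, PHX2193 B, PHX2193 C or PHX2193 D (edgeR adjusted p of 0.0506 to 0.109). That of srw-68 was lost without any of these or without HBR2340 A, HBR2340 C or N2 A (0.055 to 0.117). With only the 8 libraries compared in the fit, neither passed (edgeR adjusted p = 0.158 for srw-71 and 0.159 for srw-68).

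The gene srsx-24 (chromosome V, 7377897 to 7379484, minus strand) was called in opposite directions in the 2 mutant strains. It had 3.73, 6.53, 4.20 and 4.499 CPM in N2 and 6.86, 8.04, 9.54 and 7.75 CPM in HBR2340, against 2.57, 2.32, 1.66 and 1.99 CPM in PHX2193. The strains did not overlap in any comparison. The log2 fold change against N2 was 0.77 ± 0.21 in HBR2340 (edgeR adjusted p = 0.042) and −1.15 ± 0.21 in PHX2193 (edgeR adjusted p = 0.044). Between the mutant strains the value was −1.91 ± 0.22, PHX2193 being lower (edgeR adjusted p = 8e-05). Each call against N2 was lost in 10 of the 12 fits with 1 library left out (edgeR adjusted p of 0.0508 to 0.149 in HBR2340 and 0.0572 to 0.150 in PHX2193), N2 B being among the 2 whose removal kept it. With only the 8 libraries compared, neither call passed (edgeR adjusted p = 0.0904 in HBR2340 and 0.26 in PHX2193). The call between the mutant strains held in all 12.

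The third comparison sets both mutant strains side by side; N2 libraries enter it only through the filter, the scaling and the estimate of spread. Of 270 members, 54 were called higher in PHX2193 than in HBR2340 and 26 lower (29.6%), while 19.5% of all genes tested were called (10.1% higher and 9.39% lower). The median log2 fold change was 0.26 for members and 0.02 for all genes. Without N2 B, 79 members were higher and 38 lower, beside 32.9% of all genes called (17.3% and 15.6%). Without srlf, 49 of 253 were higher and 23 lower. Among the 155 members over the level in all 3 strains, 21 were higher and 12 lower (21.3%), and among the other 115, 33 were higher and 14 lower. This split again uses the strains' mean levels, so neither share can be set against that of all genes. Of the 212 members with a mean of at least 1 CPM over all 12 libraries, 42 were higher and 17 lower (27.8%). The libraries of both strains did not overlap for 110 of the 270 members (40.7%) and for 35.5% of all genes. Of the 80 called members, 51 were called in every fit with 1 library left out. A total of 68 differed by more than 2-fold. Of the 209 tested family genes below the level, 21 were called, 11 higher and 10 lower. The 3 comparisons share strains, so the calls of one are not independent of those of another.

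**Figure D4:**
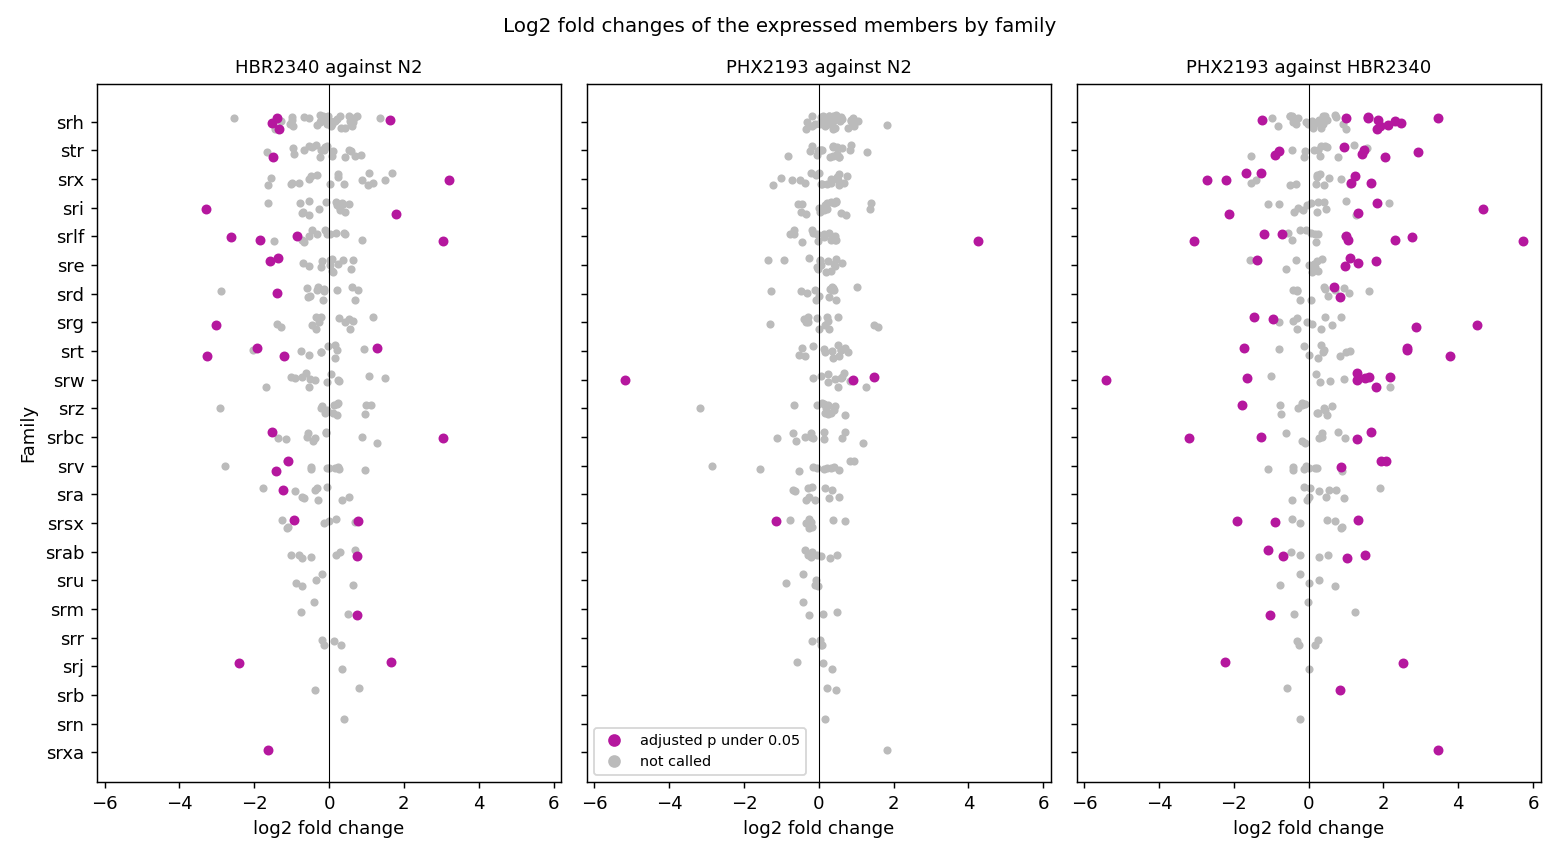
Log2 fold change of every member by family in the 3 comparisons; each point is a gene, coloured where the adjusted p was under 0.05 (edgeR quasi-likelihood test, Benjamini-Hochberg over 15908 genes). In PHX2193 against HBR2340 10 of the 11 called srh members and 6 of the 8 called srw members lie right of 0, as do 54 of all 80 called members.

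By family, the members higher in PHX2193 than in HBR2340 were most numerous in srh (10 higher and 1 lower of 40), srw (6 and 2 of 14), str (5 and 2 of 20), srlf (5 and 3 of 17) and sre (4 and 1 of 15). In this order the shares called were 27.5%, 57.1%, 35%, 47.1% and 33.3%, against 29.6% of all members and 19.5% of all genes tested. These families hold few members, chosen by the strains' mean levels, so their counts are a description. In srx 3 were higher and 4 lower of 19. The median log2 fold change of the srw members was 1.12, and of the srh members 0.36. Besides srw-85, srw-86 and the cluster of 3, the called srw members were srw-10 (1.3004 ± 0.21), srw-8 (1.62 ± 0.45) and srw-79 (−1.64 ± 0.46).

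Several members were at their lowest in HBR2340 and at their highest in PHX2193. The differences of sri-4 (log2 4.66 ± 0.67, edgeR adjusted p = 0.00050) and srg-47 (4.51 ± 0.65, edgeR adjusted p = 0.00058) were the largest after srlf-29 among the higher members. For srxa-10 the levels were 0.174, 0.390, 0.282 and 0.203 CPM in HBR2340 against 2.90, 3.13, 3.32 and 2.35 CPM in PHX2193 (3.46 ± 0.42, edgeR adjusted p = 0.00013). For srh-213 they were 0.592, 0.663, 0.493 and 0.568 CPM in HBR2340 against 3.03, 3.01, 2.84 and 3.98 CPM in PHX2193 (2.47 ± 0.27, edgeR adjusted p = 6e-05). Between the mutant strains lay 3 N2 libraries for srxa-10 and 4 for srh-213. Further rises were those of srg-20 (2.87 ± 0.44), srv-11 (1.92 ± 0.28) and sre-23 (1.32 ± 0.20). Also higher in PHX2193 than in HBR2340 was sre-6 (1.11 ± 0.13), but its highest mean was in N2 (−1.36 for HBR2340 against N2). For sre-6 the PHX2193 libraries overlapped those of N2.

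The members lower in PHX2193 than in HBR2340 were led by srw-85 and, by adjusted p, srsx-24, srbc-16 (−3.20 ± 0.39) and srlf-1. The gene srlf-1 (chromosome II, 7790591 to 7791375, plus strand; 150 residues) had 63.8, 106, 68.8 and 61.4 CPM in N2 and 109, 101.2, 92.1 and 97.1 CPM in HBR2340, against 41.4, 46.9, 49.2 and 38.6 CPM in PHX2193. PHX2193 lay below all other libraries, and N2 B lay inside the HBR2340 range. The log2 fold change against HBR2340 was −1.18 ± 0.16 (edgeR adjusted p = 0.00032). Without N2 B, srlf-1 was also called against N2, at 0.61 in HBR2340 (edgeR adjusted p = 0.0011) and −0.56 in PHX2193 (edgeR adjusted p = 0.015). The genes srlf-12 (−3.05 ± 0.44), srx-22 (−2.71 ± 0.44), srj-27 (−2.24 ± 0.39), srx-113 (−2.21 ± 0.49), sri-19 (−2.12 ± 0.35), srt-62 (−1.73 ± 0.29), srbc-39 (−1.27 ± 0.29) and srm-6 (−1.03 ± 0.21) were lower too.

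In all, 85 of the 270 members were called in at least 1 comparison and 185 in none. The matching count over all genes tested was not made, and PHX2193 against HBR2340 alone called 19.5% of them. Exons overlap another gene for 25 of the 85 called members and for 81 of all 270. Some called members lay within 20 kb of each other and were called in the same direction. On chromosome V these were srlf-36 with srlf-37 (603610 to 609771), srx-22 with srx-23 (679963 to 683970), srh-2 with sri-4 (728301 to 750467), srt-15 with srt-16 (3059640 to 3064518) and the srw cluster. On chromosome IV they were str-161 with str-166 (4884284 to 4904061). All 6 groups were called between the mutant strains. The pseudogene WBGene00006181, 695 bp from sri-4 on the same strand and looked at afterwards, was called in the direction of sri-4, lower in HBR2340 than in N2 (−2.41 ± 0.63, edgeR adjusted p = 0.038) and higher in PHX2193 than in HBR2340 (4.06 ± 0.65, edgeR adjusted p = 0.0010). Neighbours could also differ. The family gene str-262, below the level and looked at afterwards, lies 859 bp from sri-4 on the opposite strand. It was higher in HBR2340 than in N2 (2.46 ± 0.38, edgeR adjusted p = 0.0022), opposite to sri-4.

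**Figure D5:**
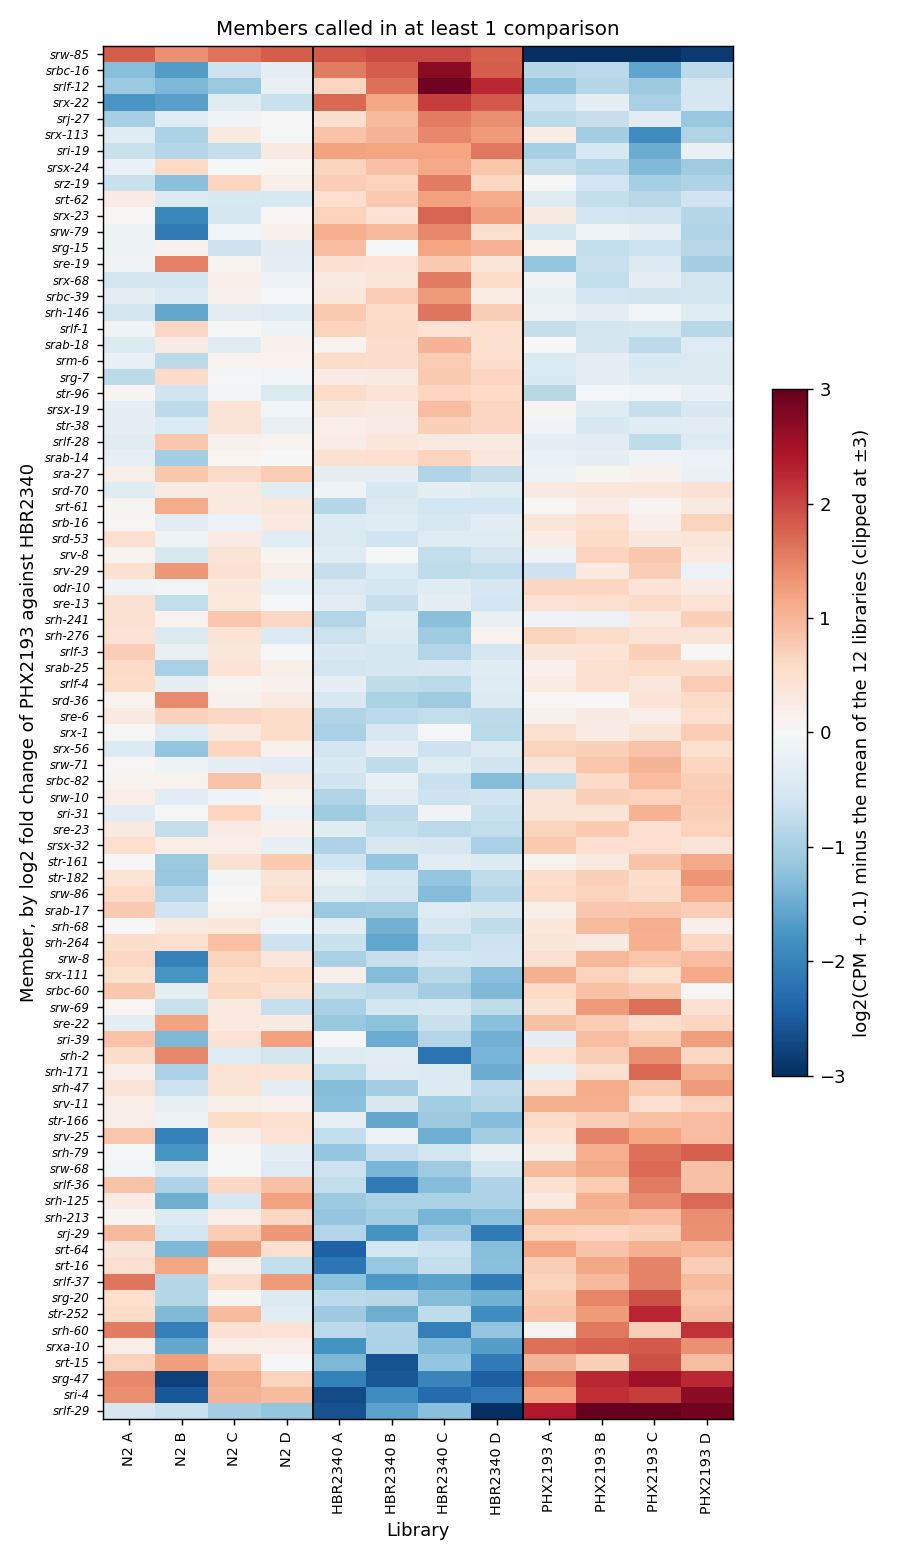
Heat map of the 85 members called in at least 1 comparison, as log2(CPM + 0.1) minus the gene's mean over the 12 libraries (clipped at 3 in each direction), ordered by the log2 fold change of PHX2193 against HBR2340. Rows were chosen by these tests; the column of N2 B differs from those of N2 A, C and D in many rows.

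Of 30 receptors with a site or ligand known from the field, 7 were members. Besides odr-10 these were str-44, sra-6 (known from the nociceptive ASH neurons), sra-10, sra-11 (known from the interneuron AIY), srbc-66 (a dauer pheromone receptor of the ASK neurons) and srb-16. The levels of sra-11 were 2.69, 2.61, 2.605 and 2.68 CPM in N2 and 2.61, 2.54, 2.82 and 2.19 CPM in HBR2340, against 2.19, 2.05, 2.77 and 2.38 CPM in PHX2193, with all 3 strains overlapping. Those of sra-10 were 2.71 to 4.26 CPM and those of srbc-66 0.634 to 1.74 CPM over the 12 libraries. For sra-6, N2 B (5.17 CPM) stood above the other N2 libraries (1.20 to 1.78 CPM).

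Of these 7, srb-16 and odr-10 were called, both in PHX2193 against HBR2340. The levels of srb-16 were 10.99, 8.46, 9.30 and 12.9 CPM in N2 and 7.87, 8.15, 7.53 and 8.44 CPM in HBR2340, against 13.7, 15.1, 11.8 and 16.9 CPM in PHX2193. PHX2193 was higher than HBR2340 in every library, by 0.85 ± 0.15 on the log2 scale (edgeR adjusted p = 0.0021). In HBR2340 against N2, 0 of the 15 listed receptors that could be tested were called by edgeR, with 4 at an unadjusted p under 0.05, 1 called lower by DESeq2 and 0 called by limma-voom. In PHX2193 against N2 the edgeR count was also 0, with 2 at an unadjusted p under 0.05, 1 called higher by DESeq2 and 0 by limma-voom. Below the level, srx-43 (1.34 ± 0.34, edgeR adjusted p = 0.016) was higher and sra-7 (−3.38 ± 0.78, edgeR adjusted p = 0.0090) lower in PHX2193 than in HBR2340; both were named after their values were seen.

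Some other well known receptors were near 0 in whole arrested larvae, while others lay nearer the level. Over all 12 libraries str-2, known from one of the AWC pair of neurons, had 12 counts, str-217 had 3, sra-13 had 10, srh-220 had 10 and sri-14 had 7. The pheromone receptor genes srg-36 and srg-37 of the ASI neurons had 21 and 46 counts, of which 12 and 15 were in N2 B. Nearer the level, and named after their values were seen, sre-1 had 212 counts and srx-43 had 205. At this depth 1 count is worth 0.0274 to 0.0568 CPM, so a receptor made in 1 or 2 cells may fall under the level without being absent.

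Of 33 genes of chemosensory signal transduction, 1 rose and 1 fell in HBR2340 against N2, where 7.37% of all genes were called: gpa-14, a G protein alpha subunit gene, from 15.3 ± 1.28 to 20.98 ± 2.91 CPM (0.46 ± 0.12, edgeR adjusted p = 0.034), and odr-3, the G alpha gene needed for olfaction in AWA and AWC, from 34.2 ± 3.03 to 27.2 ± 1.05 CPM (−0.33 ± 0.09, edgeR adjusted p = 0.036). In PHX2193 against HBR2340, 3 of the 33 were higher and 1 lower, where 19.5% of all genes were called. The higher ones were odr-3 (0.47 ± 0.09), gpa-8 (0.77 ± 0.23) and gpa-6 (0.66 ± 0.20), and the lower one gpa-14 (−0.68 ± 0.12). Of 27 trafficking factors and regulators of chemoreceptor genes, nsy-4, a claudin-like gene that acts in AWC asymmetry, rose in HBR2340 (0.68 ± 0.17, edgeR adjusted p = 0.028). Between the mutant strains 1 of the 27 was higher in PHX2193 and 2 were lower, beside the same 19.5% of all genes called. The higher one was tbx-2 (0.65 ± 0.14). The lower ones were nsy-4 (−1.17 ± 0.17) and odr-4 (−0.31 ± 0.08), which is needed to bring odr-10 protein to the cilia. Without N2 B, the genes called in HBR2340 against N2 were 5 of 33 (1 higher and 4 lower) and 3 of 27 (2 and 1), and 3 of the 15 known receptors were lower. Of all genes, 17.7% were called in that fit (7.93% higher and 9.8% lower).

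The number of marker genes called between strains differed from list to list. The summed level of 20 ciliated neuron genes was 430 to 582 CPM in N2, 553 to 659 CPM in HBR2340 and 404 to 521 CPM in PHX2193. Of the 20, 4 (daf-10, osm-6, dyf-1 and bbs-5) were lower in PHX2193 than in HBR2340, with none higher, where 9.39% of all genes were called lower. The sum of 19 pan-neuronal genes was 4479 to 6815, 6024 to 7089 and 4679 to 6610 CPM, and 1 (rab-3, −0.43 ± 0.11) was lower in PHX2193 than in HBR2340. In HBR2340 against N2 the edgeR count was 0 of 20 ciliated and 0 of 19 pan-neuronal genes, with 5 and 2 at an unadjusted p under 0.05, 1 and 0 called by DESeq2 and 0 called by limma-voom. Without N2 B, 2 ciliated genes were higher in HBR2340 than in N2, as were 7.93% of all genes. In the same fit, 8 were lower in PHX2193 than in HBR2340, as were 15.6% of all genes, and the members' median log2 fold change was 0.28. How the members and these 8 marker genes relate was not tested.

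Body wall muscle genes differed most among the marker lists. Their summed level over 15 genes was 11425 to 19594 CPM in N2, 24684 to 25819 CPM in HBR2340 and 7851 to 13180 CPM in PHX2193. Of these 15, 11 rose in HBR2340 against N2 (tnt-2 by 2.07 ± 0.18, unc-52 by 1.29 ± 0.15), and 13 were lower in PHX2193 than in HBR2340. In the intestine list, 12 of 13 names were found; elt-2, the intestinal GATA factor gene, fell in HBR2340 (−0.91 ± 0.21, edgeR adjusted p = 0.021) and was higher in PHX2193 than in HBR2340 (1.13 ± 0.21), while cpr-6 was lower (−0.73 ± 0.22). Of 13 germ cell genes, 0 were called by edgeR, DESeq2 or limma-voom in any comparison, and 0 had an unadjusted p under 0.05. In PHX2193 against N2, 0 genes of any of these 7 lists were called by edgeR or limma-voom, and DESeq2 called 2 muscle genes lower; at an unadjusted p under 0.05 there were 7 muscle, 2 regulator, 1 signalling and 1 ciliated gene. No listed gene was at 0 in all libraries. The part of cell composition in the results for the members was not tested.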

How the data were processed

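The deposited values are whole-number gene counts per library made by the authors, 46934 WormBase identifiers in 12 libraries. Per the submitters' processing notes the tool was Bowtie 0.12.2 and the builds were WBcel235 and mm8. The sources used here do not give the use of mm8, the counting program, annotation release, strandedness or handling of multiply mapped reads. Ensembl annotation of WBcel235 supplied positions for 46924 identifiers and symbols for 44113. The most alike libraries of any strain had a chi-square of 15.7 per degree of freedom, far above sampling noise, so each counts as 1 sample.

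Members and gene lists were chosen with earlier results of these data known. The level of the rule is a strain's mean CPM over column totals; printed levels use TMM scaling. The filterByExpr filter (minimum count 10 in enough libraries and minimum total 15) was applied with strain as the group, leaving 15908 tested and removing 31026; all 270 members were tested. All 12 libraries entered 1 robust quasi-likelihood fit with a mean for each strain, in edgeR 4.0.16 under R 4.3.3 (9 residual degrees of freedom; the common BCV was 0.276). Tests are two-sided, and p-values were Benjamini-Hochberg adjusted over all genes tested, called under 0.05. The standard error is the log2 fold change divided by the square root of F. The fit was tested on simulated counts. The limit that a count of 0 allows is 3 counts, and such limits cover counting error only.

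Named are the 10 members highest per kb, up to 12 called members per direction and comparison by adjusted p, members among 30 known receptors, the 3 genes on each side of the threshold, and up to 4 called genes per list. Genes named otherwise are said to be, or stand in counts and neighbour groups and were chosen after their values were seen. Alternatives were other scaling, filters, DESeq2 1.42.0, limma-voom (limma 3.58.1), fewer libraries, a replicate block and other member rules. No sequences are printed.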

Additional observations from a re-analysis of the deposited data

Results flagged for a closer look

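In the 4 libraries of a strain, 22 values of the named members stood apart from the other 3, by a criterion that flags about 1 in 20 groups by chance. There were 47 named members in 3 strains, so some of the 22 flags are to be expected by chance. N2 B was the library for srlf-32 (414.6 CPM, highest of its strain), srlf-1 (105.7 CPM, highest), sra-6 (5.17 CPM, highest), srxa-10 (0.227 CPM, lowest), sre-23 (4.94 CPM, lowest) and str-44 (0.114 CPM, lowest). HBR2340 C was the library for srlf-7 (77.6 CPM, lowest), srlf-33 (13.3 CPM, lowest), srlf-31 (50.3 CPM, highest), srbc-16 (9.05 CPM, highest), srh-146 (7.74 CPM, highest) and srm-6 (5.67 CPM, highest). Other N2 and HBR2340 values were srlf-12 in N2 D (2.58 CPM), sri-19 in N2 D (1.85 CPM) and HBR2340 D (4.75 CPM), and srt-62 in N2 A (1.04 CPM), each the highest of its strain. In PHX2193 they were srw-86 in D (35.1 CPM), srh-213 in D (3.98 CPM), srj-29 in D (2.85 CPM), srm-6 in B (2.71 CPM) and srbc-39 in A (1.14 CPM), each the highest, and srbc-16 in C (0.369 CPM), the lowest. Their causes were not tested.

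The member srsx-24 was called higher in HBR2340 and lower in PHX2193 against the same N2 libraries. The test of the difference between both strains gave a log2 fold change of −1.91 for PHX2193 against HBR2340.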

How the results depend on the processing

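The number of members called in HBR2340 against N2 (32) was 57 with DESeq2, 21 without a filter on low counts and 15 with only the 8 libraries compared. It was 14 to 68 with 1 library left out. Of the 147 members with at least 2 CPM in a strain, 19 were called, and of the 189 without exon overlap 21 (11.1%). In the main fit 7.37% of all genes were called. In PHX2193 against N2 (5) it was 15 with DESeq2, 2 with only the 8 libraries compared and 2 to 8 with 1 library left out. In PHX2193 against HBR2340 (80) it was 97 with DESeq2, 115 with only the 8 libraries compared and 56 to 117 with 1 library left out. Of the 147 members with at least 2 CPM, 52 were called in this comparison, where the main fit called 19.5% of all genes. Of the fits with 1 library left out, the one without N2 B gave the highest count in each comparison. Calls over all genes were counted only for the main fit and the fit without N2 B. Members without srlf, a choice made after seeing the data, gave 28, 4 and 72. The number of members (270) was 147 at a level of 2 CPM, 414 at 0.5 CPM, and 264 to 275 with 1 library left out. The cause of these shifts was not tested, except that stricter member rules hold fewer genes.

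The letters A to D did not pair the libraries: 3 of 12 same-letter pairs had a correlation of deviations over 0.1 (range −0.18 to 0.66). With the replicate block the counts were 26, 2 and 73. Of 63 named results, 0 reversed and 47 were called under every setting run. Of the other settings, 533 kept the call and 33 lost it, and with 1 library left out 667 kept it and 89 lost it. Depth limits members of few counts most, since the median member's lowest library held 14 counts.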
